A study of Ovis aries with 4 samples.

Results

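The cytosolic ribosomal protein genes were followed in conceptuses of sheep at day 14 of pregnancy. A feature was taken as a member when its name in the deposited table was LAMR1 or the symbol of a large-subunit (RPL), small-subunit (RPS) or stalk (RPLP) protein, with or without a copy number. No expression value enters this rule, which was set with earlier results of these data known. The rule gave 66 of 25197 features, carrying 51 distinct names. The study profiled total RNA, depleted of ribosomal RNA, from 4 conceptuses of 4 different Columbia and Rambouillet crossbred ewes, each conceptus having been flushed from the uterus with 10 ml of buffered saline and frozen. The embryo and its membranes are called the conceptus, at this stage a long filament made mostly of trophectoderm. No treatment, genotype or second time point is part of the design, so the values below are levels within 1 group and their spread between animals.

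Ribosomal proteins and ribosomal RNA build the 2 subunits of the cytosolic ribosome, the small 40S subunit that decodes the messenger RNA and the large 60S subunit that forms the peptide bond. Each protein is normally present in 1 copy per ribosome, apart from the stalk proteins P1 and P2, and in mammals each is encoded by 1 principal gene that is accompanied by many processed pseudogenes. Their messenger RNAs carry a 5′ terminal oligopyrimidine tract, through which mTOR signalling and LARP1 adjust their translation together. In a rapidly elongating conceptus, ribosome production supports growth and the secretion of interferon tau and other products.

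Levels are RPKM, read numbers corrected for transcript length and library size, so they can be set side by side between genes. The 4 libraries summed to between 454387 and 522308 RPKM, and no counts were used, so absolute depth is unknown; relative depth, taken from the most frequent ratio of features above 0 in exactly 2 libraries, put conceptuses 2, 3 and 4 at 0.737, 1.02 and 0.658 of the depth of conceptus 1. Of 7 listed trophectoderm and epithelial markers, 6 were in the table, and their levels ranged widely (SD, n = 4). TP-1 stood at 20347 ± 7992.5, KRT8 at 6211 ± 1418, CLDN6 at 181 ± 69.6 and EPCAM at 163 ± 30.3 RPKM. The transcription factors GATA3 and CDX2 were lower, at 29.3 ± 9.49 and 11.9 ± 3.90 RPKM. Of 5 listed blood and endothelial markers only 2 were in the table, CDH5 at most 0.02 RPKM and GATA1 at 1.16 to 4.71 RPKM. PECAM1, HBA and HBB had no feature under these names. Of the leukocyte markers, PTPRC was at most 0.04 RPKM and CD68 at 0.99 to 1.9 RPKM. Of the mesodermal markers, T was at most 0.04 RPKM and VIM at 8.83 to 13.9 RPKM.

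The ribosomal protein features together held 8.11%, 7.37%, 6.59% and 7.75% of the summed RPKM in conceptuses 1 to 4, a mean of 7.46 ± 0.650% (SD, n = 4). The share was highest in conceptus 1 and lowest in conceptus 3, which also had the largest share taken by the interferon tau feature TP-1, 6.30% against 2.81% to 4.65% in the others. With TP-1 left out of the sum, the share was 7.04% in conceptus 3, against 7.59% to 8.34% in the other conceptuses. The part of TP-1 in this order was not tested. Large-subunit features accounted for 3.78 ± 0.437% and small-subunit features for 3.67 ± 0.227% of the summed RPKM.

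Of the 66 features, 33 averaged 200 RPKM or more, 14 lay between 5 and 200, 2 between 1 and 5, and 17 below 1. For comparison, 351 of all 25197 features reached 200 RPKM. Of the ribosomal protein features, 49 averaged 1 RPKM or more, namely 26 of 40 large-subunit features, 21 of 22 small-subunit features and 2 of the 4 diverged copies. The median log2(RPKM + 1) over those 49 was 9.22, and over the 9602 features of the table that averaged 1 RPKM or more it was 3.31. Among the 100 most abundant features of the table, 21 were ribosomal protein features.

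**Figure D1:**
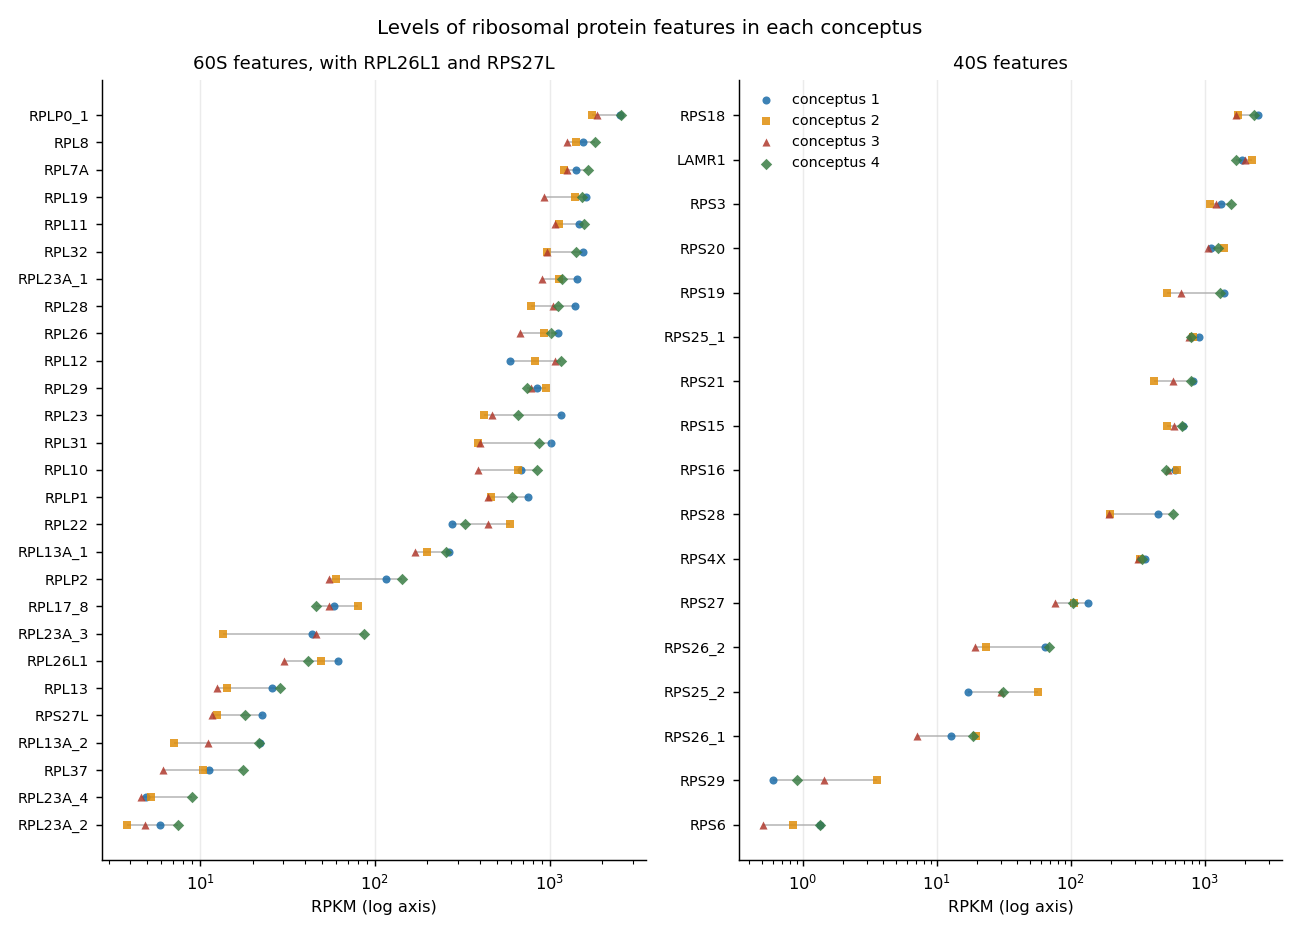
RPKM on a log axis for 44 of the 49 ribosomal protein features averaging 1 RPKM or more, 1 marker per conceptus and a grey line over their range. The levels drawn run from RPLP0_1 near 2174 RPKM down to RPS6, whose libraries lie between 0.51 and 1.34 RPKM, and for most features the 4 conceptuses lie close together beside that range.

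The small subunit supplied 5 of the 6 highest levels. RPS18, of the 40S head, stood at 2476, 1774, 1699 and 2331 RPKM in conceptuses 1 to 4. Conceptuses 1 and 4 were above the other 2.

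LAMR1 is the table's name for RPSA, a 40S protein near the messenger RNA exit that was first described as a laminin receptor. It stood at 1902, 2244, 1994 and 1704 RPKM, highest in conceptus 2 and lowest in conceptus 4. RPS3, at the entry of the messenger RNA channel, stood at 1301 ± 203, and RPS20 at 1196 ± 144 RPKM.

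RPS19, the gene most often mutated in Diamond-Blackfan anaemia, RPS25_1 and RPS21 were also among the 10 highest small-subunit features, at 965 ± 437, 817 ± 62.9 and 646 ± 187 RPKM. Next came RPS15 at 618 ± 75.2 and RPS16 at 562 ± 51.2 RPKM. RPS28 and RPS4X followed at 351 ± 189 and 334 ± 17.5 RPKM, so neighbours in this order often differed by less than their spread between animals. RPS27, a zinc finger protein, was lower at 105 ± 23.1 RPKM.

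In the large subunit the stalk base protein RPLP0, on which P1 and P2 assemble to recruit elongation factors, led with its first copy at 2519.9, 1748, 1875 and 2553 RPKM. RPL8, next to the peptidyl transferase centre, stood at 1559, 1419, 1264 and 1820.0 RPKM, and RPL7A at 1417, 1206, 1259.6 and 1665 RPKM. All 3 were higher in conceptuses 1 and 4 than in conceptuses 2 and 3. RPL11, which with RPL5 and 5S ribosomal RNA forms the particle that binds MDM2 under nucleolar stress, was likewise higher in conceptuses 1 and 4, at 1471, 1138, 1077 and 1566 RPKM.

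RPL19 stood at 1367 ± 305, RPL32 at 1227 ± 306 and RPL23A_1, a protein of the tunnel exit, at 1164 ± 217 RPKM. RPL28 at 1084 ± 250.3 and RPL26 at 935 ± 189 RPKM were also among the 10 highest large-subunit features. These 5 means lie within the spread of their neighbours. RPL12, of the stalk base, had an order of its own at 594, 823, 1075 and 1165 RPKM, lowest in conceptus 1.

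Below them came RPL29 at 829.9 ± 93.6, RPL23 at 679 ± 343, RPL31 at 669.6 ± 325 and RPL10 at 643 ± 188 RPKM. The other stalk proteins were listed lower than RPLP0, with RPLP1 at 567 ± 145 and RPLP2 at 93.5 ± 43.3 RPKM. RPL22, which also binds viral and cellular RNAs outside the ribosome, stood at 410.3 ± 141, and RPL13A_1 at 222 ± 45.6 RPKM. RPL17_8 stood at 59.8 ± 14.4 RPKM.

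The medians of the large-subunit and small-subunit features of at least 1 RPKM were close. On the log2(RPKM + 1) scale the large-subunit median minus the small-subunit median was 0.22, 0.26, −0.33 and 0.24 in conceptuses 1 to 4. Conceptus 3 was the only library in which the large-subunit median was the lower one. The mean of 0.10 ± 0.287 (SD, n = 4) was smaller than its spread and did not keep its sign: it was 0.01 without conceptus 1, −0.04 without conceptus 2, 0.16 without conceptus 3 and −2.2e-05 without conceptus 4. The difference also rests on which features are counted: over all 62 large- and small-subunit features, those listed at 0 included, it lay between −3.94 and −3.27, since 14 of the 17 features below 1 RPKM were of the large subunit.

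The list of canonical ribosomal proteins holds 80 names, 47 of the large and 33 of the small subunit, and 47 of them had a feature among the members. For 33 of these 47 the highest feature reached 200 RPKM, for 8 it lay between 1 and 200 RPKM and for 6 below 1. The 6 were RPL3, RPL5, RPL18, RPL21, RPL35 and RPS24. All encode proteins of the ribosome that every cell makes, so a low value here is reported as listed and not as absence of the transcript.

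RPL5 and RPL18 were listed at 0 in all 4 conceptuses. RPL3, which lies beside the peptidyl transferase centre, was listed at 0.11 RPKM in conceptus 1 and at 0 in the other 3. RPL35, at the exit of the peptide tunnel, was at 0.17 and 0.16 RPKM in conceptuses 1 and 3 and listed at 0 in conceptuses 2 and 4. Other proteins of the same subunit described above stood far higher.

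RPS24 was listed at 0, 0.56, 0.13 and 0 RPKM and RPL21 at 0.92, 1.39, 0 and 1.21 RPKM. RPS6, the 40S protein phosphorylated by the S6 kinases downstream of mTOR, was only at 1.34, 0.84, 0.51 and 1.34 RPKM. RPS29 was at 0.6, 3.61, 1.43 and 0.9 RPKM, and its mean of 1.64 RPKM was 0.977 RPKM without conceptus 2. RPL13 at 20.3 ± 8.08 and RPL37 at 11.4 ± 4.73 RPKM were also far below the main group. The low values of RPS6, RPS29, RPL13 and RPL37 are likewise reported as listed and not as low expression.

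The table numbers several features of 1 name as copies for 6 names, 21 features in all, and in each name 1 copy held most of the summed RPKM. RPLP0_1 held at least 99.97% of the RPLP0 sum in every library, against RPLP0_2 at 0.24 to 0.49 RPKM. RPL17_8 held at least 99.3% of the RPL17 sum, while RPL17_1, RPL17_3 and RPL17_4 were above 0 in 1 library each and RPL17_2, RPL17_5, RPL17_6 and RPL17_7 were listed at 0 in all 4.

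RPL23A_1 held 91.98% to 98.0% of the RPL23A sum, beside RPL23A_3 at 43.8, 13.6, 45.9 and 86.6 RPKM. RPL23A_4 and RPL23A_2 were near 5.95 and 5.49 RPKM. RPL13A_1 held 92.1% to 96.5% of its sum, RPL13A_2 stood at 21.98, 7.06, 11.1 and 21.8 RPKM, and RPL13A_3 was listed at 0 throughout. RPS25_1 held 93.5% to 98.2%. For RPS26, a 40S protein at the messenger RNA exit, the split was less uneven, RPS26_2 holding 54.2% to 83.6% of a sum of only 58.4 ± 28.6 RPKM.

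Copies of 1 name did not share 1 order across animals. RPS25_1 was highest in conceptus 1 at 906 RPKM and lowest in conceptus 3 at 761 RPKM. RPS25_2, at 17.0, 56.7, 30.4 and 31.0 RPKM, was highest in conceptus 2 and lowest in conceptus 1. RPS26_2 was at 64.6, 23.1, 19.4 and 68.6 RPKM and RPS26_1 at 12.7, 19.6, 7.11 and 18.7 RPKM, so conceptus 2 was highest for the second of these and next to lowest for the first. Reads of near-identical copies can be shared between them or lost in counting. The sources used here do not give how they were counted, and its part in these values was not tested. Values of single copies and of the 6 names listed near 0 are therefore uncertain. So are those of other low features such as RPS6, RPS29, RPL13, RPL37 and RPLP2.

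**Figure D2:**
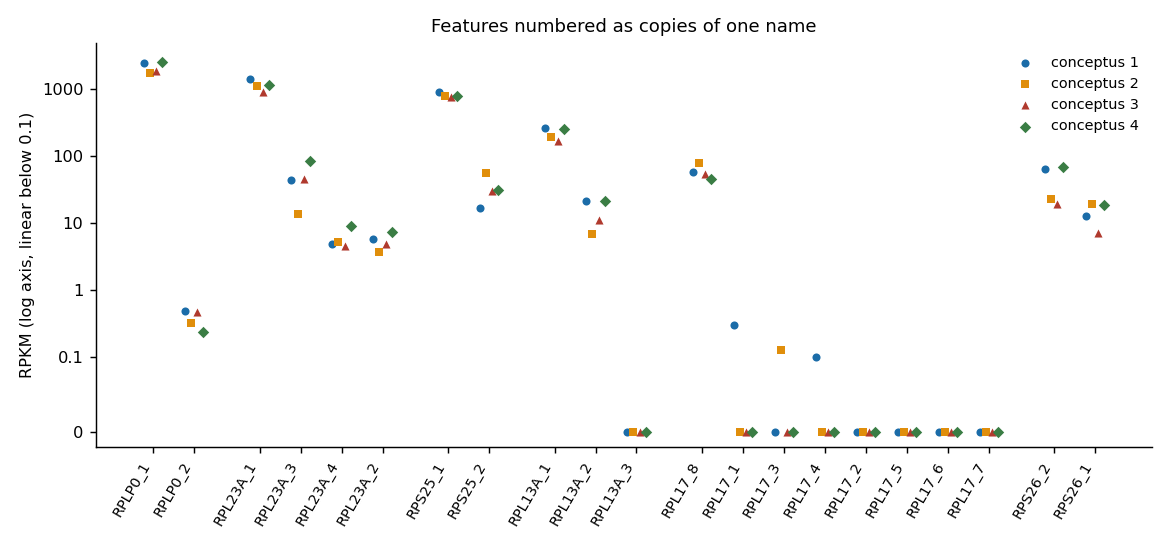
RPKM in each conceptus of the 21 features numbered as copies of 6 names, on a log axis that is linear below 0.1. Each name has 1 copy well above the rest except RPS26, whose copies average 43.9 and 14.5 RPKM.

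Features outside the naming rule covered some of the missing names. RPL36A-HNRNPH2, a feature that joins RPL36A with its neighbour, stood at 557 ± 61.9 RPKM. A further 14 features without a symbol are described in the table as ribosomal protein L4, L6, L35a or S15a, and 7 of them averaged 1 RPKM or more. The feature described as L4 stood at 772 ± 63.3, the highest of those described as L6 at 601 ± 136 and the highest described as L35a at 344 ± 48.9 RPKM. The highest of 6 features described as S15a reached only 4.88 ± 1.80 RPKM.

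Among the diverged copies of ribosomal protein genes, RPL26L1, RPS27L and RPL10L were listed lower than their canonical partners. RPL26L1 stood at 61.7, 49, 30.1 and 41.7 RPKM, against 1119.9, 927, 678 and 1014 RPKM for RPL26. RPS27L, a p53 target in human cells, stood at 22.8, 12.5, 11.7 and 18.1 RPKM, against 133, 105, 76.7 and 104 RPKM for RPS27. RPL10L, a retrotransposed copy needed in male meiosis in mice, was at most 0.17 RPKM, against 389 to 843 RPKM for the X-linked RPL10. In each of these pairs every library of the diverged copy lay below every library of its partner.

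The log2 ratio of diverged copy over partner, with a pseudocount of 1, was −4.35 ± 0.194 for RPL26L1 and −2.63 ± 0.230 for RPS27L (SD, n = 4). For RPL10L it was −9.15 ± 0.502, a size set by the pseudocount. All 3 ratios were negative in 4 of 4 conceptuses, with p = 0.125 (exact permutation of signs, two-sided) and 0.125 after Benjamini-Hochberg adjustment over the 3 pairs, the smallest p that 4 conceptuses allow. RPL3L, the striated muscle copy of RPL3, was at 0.13 RPKM or less, as was RPL3 itself, so the ratio of that pair was not read as a difference. The remaining 4 of the 8 listed pairs were not analysed here.

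Conceptuses differed in a shared direction across the ribosomal protein features. Relative to each feature's mean over the 4 libraries, the median deviation of the 49 features was 0.16, −0.12, −0.25 and 0.22 on the log2(RPKM + 1) scale in conceptuses 1 to 4. Over all 9602 features it was 0.08, −0.06, −0.07 and 0.05, the same signs at smaller size. Those features are mostly of far lower level. Among features of at least 200 RPKM the 2 sets lay closer. There the ribosomal protein medians were 0.16, −0.14, −0.18 and 0.19, and those of all such features 0.10, −0.08, −0.13 and 0.11. Conceptus 3 was lowest by this measure, and conceptuses 1 and 4 lay above the other 2. Conceptus 4 led conceptus 1 by the median deviation, but conceptus 1 had the larger share of the summed RPKM. It also had the highest value for more features, 22 against 17 of 49, or 44.9% against 34.7%. Over all features conceptus 1 likewise led conceptus 4, with 32.8% against 26.3%. With each library summed to 1000000 the deviation was 0.12 in both. With each library rescaled by its median log2 ratio it was 0.07 in conceptus 1 and 0.18 in conceptus 4. In whole conceptuses, fewer cells of a type and less RNA per cell cannot be told apart.

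Conceptus 3 had the lowest value for 27 of the 49 features, 55.1%, against 29.8% of all features. It had the highest value for 0 of the 49, against 15.4% of all features, and for 1 of 49 under either rescaling of the libraries. The 2 highest libraries were conceptuses 1 and 4 for 31 of the 49 features, 63.3%, against 36.1% of all features. With each library rescaled by its median log2 ratio, these counts were 19 and 23 of 49, or 38.8% and 46.9%, against 22.2% and 27.2% of all features. Among features of at least 200 RPKM the 2 highest libraries were conceptuses 1 and 4 for 23 of 33, 69.7%, against 41.9% of all such features, and conceptus 3 was lowest for 17 of 33, 51.5%, against 38.2%. No test was made of these shares, since genes are not replicates and the order was noticed in these data.

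**Figure D3:**
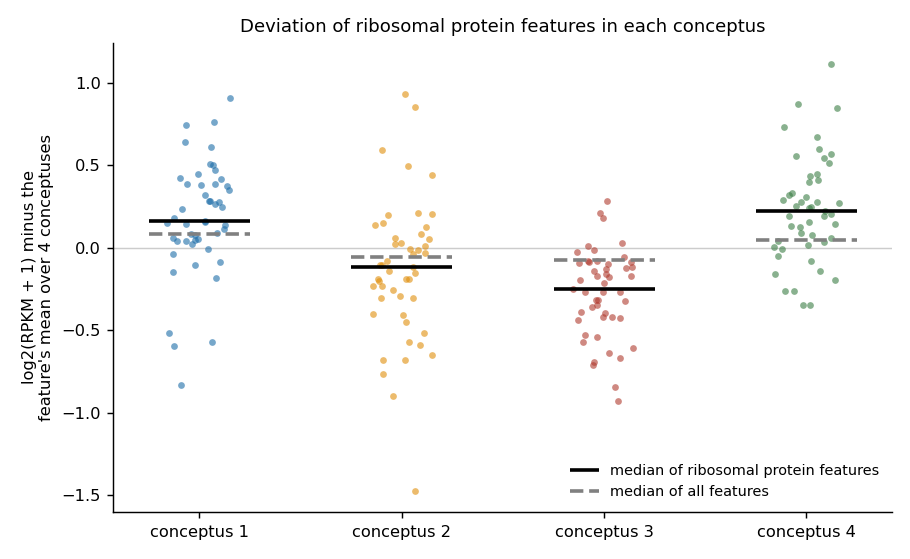
Deviation of each of the 49 ribosomal protein features (points) from its own mean over 4 conceptuses, on the log2(RPKM + 1) scale, with the median of these features (black) and of all 9602 features (grey dashes). The black medians run 0.16, −0.12, −0.25 and 0.22 from conceptus 1 to 4, farther from 0 than the grey ones in each library.

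The library lowest for this family, conceptus 3, had a relative depth of 1.02, and conceptus 4 had 0.658, against 1 for conceptus 1 and 0.737 for conceptus 2. KRT8 was at 5756, 5847, 4983 and 8256 RPKM and EPCAM at 199, 137, 139 and 178 RPKM, both lowest or next to lowest in conceptus 3. CLDN6 at 239.6, 94.7, 155 and 235 RPKM was highest in conceptuses 1 and 4, and CDX2 at 17.2, 10.9, 7.89 and 11.6 RPKM was lowest in conceptus 3. GATA3 went the other way, at 29.7, 17.2, 40.4 and 29.8 RPKM, highest in conceptus 3, as was TP-1. The 6 trophectoderm markers together summed to 20245, 19504, 35034 and 32988 RPKM, a sum led by TP-1. The part of depth, of cell composition or of TP-1 abundance in the ribosomal protein order was not tested.

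The largest differences between animals sat on a minority of members. A range of over 2-fold between libraries was seen for 17 of 49 features, 34.7%, against 29.5% of all features, and for 6 of 33 features of at least 200 RPKM, 18.2%, against 19.9%. The median coefficient of variation was 24.1% for ribosomal protein features and 22.9% for all, and 18.9% and 19.0% at 200 RPKM or more. At 200 RPKM or more the 2 medians of variation thus differed by little.

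At a mean of at least 10 RPKM, 15 features exceeded that 2-fold range, and in 10 of them conceptuses 1 and 4 were the highest. The shares of all features at this limit were not computed. At a mean of at least 5 RPKM, 31.9% of ribosomal protein features and 21.9% of all features exceeded 2-fold. Conceptuses 1 and 4 were the 2 highest for 36.1% of all features of at least 1 RPKM, whatever their range. RPS19 stood at 1386, 521, 662 and 1291 RPKM, 2.66 times as high in the highest library as in the lowest. RPL31, at the tunnel exit, stood at 1022, 387, 400.0 and 869.7 RPKM and RPL23 at 1169, 419, 465 and 663 RPKM. In both, conceptus 1 was highest and conceptus 2 lowest.

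RPS28, a small 40S protein, stood at 444, 195, 193 and 573 RPKM, the widest range above 200 RPKM at 2.97 times. RPLP2 showed the same split at 116, 59.7, 55.0 and 143 RPKM, as did RPL13 at 25.8, 14.3, 12.5 and 28.6 RPKM. RPL10, which joins the 60S subunit late in its maturation, stood at 682, 658, 389 and 843 RPKM, so that its range came mainly from conceptus 3. RPL37 was likewise lowest in conceptus 3 at 6.14 RPKM, with 10.4 to 17.6 RPKM in the others.

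RPL22 ran the other way. It stood at 275, 593, 445 and 328 RPKM, highest in conceptus 2 and lowest in conceptus 1. It was the only one of the 15 in which conceptuses 2 and 3 were the highest. RPL26L1 was highest in conceptuses 1 and 2, RPL23A_3 in conceptuses 3 and 4, and RPS25_2 and RPS26_1 in conceptuses 2 and 4.

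**Figure D4:**
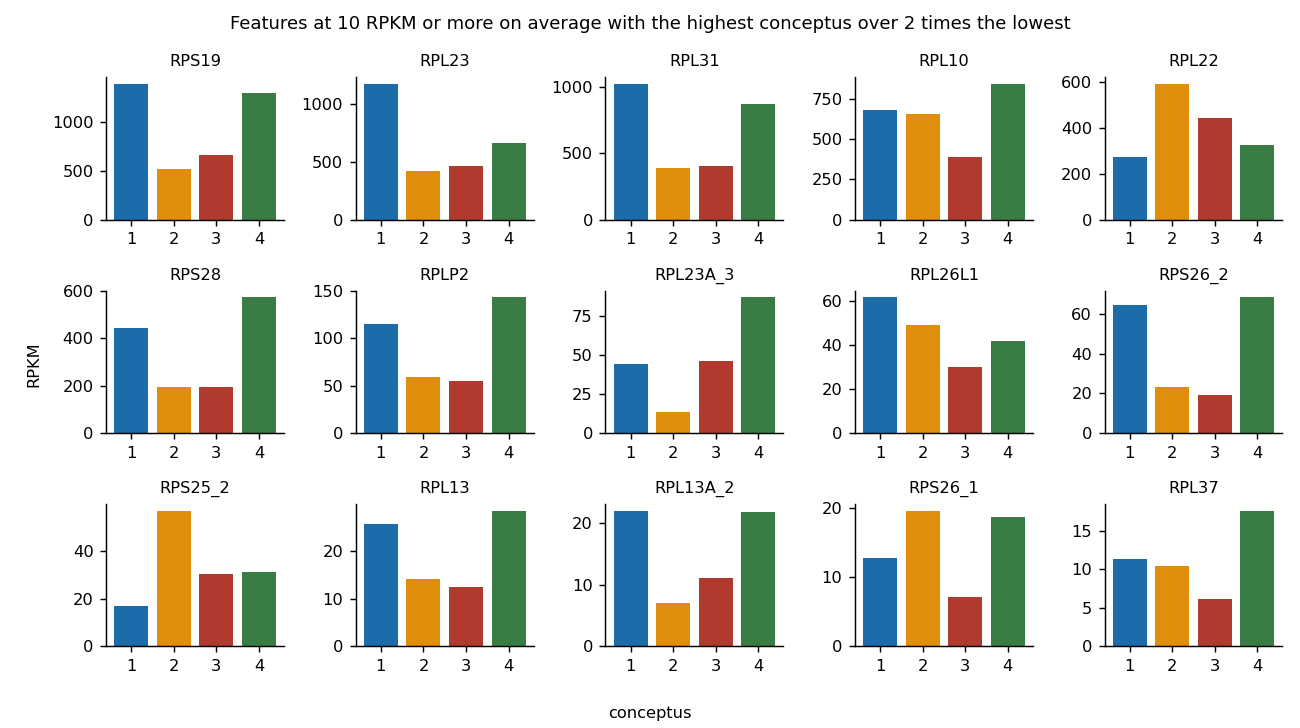
RPKM in conceptuses 1 to 4 (bars, each axis from 0) of the 15 ribosomal protein features averaging 10 RPKM or more that spanned over 2-fold between libraries. In 10 panels, such as RPS19, RPL31 and RPS28, conceptuses 1 and 4 are the highest, and in RPL22 they are the lowest. Conceptuses 1 and 4 were the 2 highest for 36.1% of all features of at least 1 RPKM, whatever their range.

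RPS4X, RPS25_1, RPS16 and RPL29 were among the 5 steadiest members. RPS4X, an X-linked gene with a Y-linked partner in primates, stood at 354, 326, 314 and 342 RPKM, a coefficient of variation of 5.23% and a highest library 1.13 times the lowest. RPS25_1 had a coefficient of variation of 7.70%, RPS16 of 9.11% and RPL29 of 11.3%. In RPS16 and RPL29 conceptus 2 was highest and conceptus 4 lowest, unlike most members.

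An upper-tail F test, built on limma's fit, set each feature's variance against the fitted trend. It called 0 of 9602 features and 0 of the 49 ribosomal protein features at an adjusted p of 0.05, a background of 0%. At an unadjusted p under 0.05 there were 8 ribosomal protein features, 16.3%, against 466 features or 4.85% of all. The 8 were RPL23A_3, RPS26_2, RPS28, RPL13A_2, RPL31, RPS25_2, RPLP2 and RPS19. The smallest adjusted p of the F test among them was 0.971, for RPL23A_3. Of these 8, 4 are numbered copies whose values are uncertain. This test asks only whether a feature varies more than the fitted trend, so it cannot decide whether single animals differ in any 1 gene. No such difference is established here.

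Genes that build and regulate ribosomes were examined beside the proteins themselves. Of 50 listed ribosome biogenesis factors 43 were in the table, and all 43 averaged 1 RPKM or more. The highest were the ribosomal RNA methyltransferase FBL at 207 ± 38.3, NOP16 at 188 ± 52.0 and the 60S maturation factor EIF6 at 125 ± 22.6 RPKM. The lowest were BRIX1 at 7.37 ± 2.66, MPHOSPH10 at 4.12 ± 1.10 and RRS1 at 1.34 ± 0.918 RPKM. FBL alone passed the 200 RPKM reached by 33 ribosomal protein features.

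The biogenesis factors shared the low value in conceptus 3 but not the high value in conceptus 4. Their median deviations were 0.25, 0.24, −0.32 and −0.10 on the log2(RPKM + 1) scale in conceptuses 1 to 4. Conceptus 3 was lowest for 26 of 43, 60.5%, against 29.8% of all features. The 2 highest libraries were conceptuses 1 and 2 for 25 of 43, 58.1%, against 17.4% of all features. They were conceptuses 1 and 4 for 13, 30.2%, against 36.1%. NOP56 at 122, 149, 82.5 and 88.6 RPKM and NOB1 at 127, 137, 75.8 and 114 RPKM were highest in conceptus 2. NHP2, at 163, 75.2, 60.1 and 129 RPKM, was instead highest in conceptuses 1 and 4, as RPS19 was. The difference between the 2 lists was not tested.

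Genes of ribosomal RNA transcription had median deviations of 0.18, 0.12, −0.23 and −0.08 over the 14 genes that averaged 1 RPKM or more. The 2 highest libraries were conceptuses 1 and 2 for 8 of them, 57.1%, against 17.4% of all features. They were conceptuses 1 and 4 for 5, 35.7%, near the 36.1% of all features. The polymerase subunits POLR2E, POLR2F and POLR2H, shared between polymerases, were highest at 309 ± 58.3, 95.3 ± 26.1 and 52.0 ± 10.5 RPKM. The promoter selectivity factors TAF1B, TAF1C and TAF1A were lowest at 1.97 ± 0.406, 1.10 ± 0.422 and 0.600 ± 0.183 RPKM. UBTF, the upstream binding factor of ribosomal DNA, stood at 28.8 ± 4.91 RPKM.

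In the list of mTOR, S6 kinase and terminal oligopyrimidine regulators, 14 of 14 genes were in the table and reached 1 RPKM. CNBP was highest at 132 ± 33.6 RPKM, then LARP1, the repressor that binds these messenger RNAs, at 91.1 ± 6.35 and the translation repressor EIF4EBP1 at 69.3 ± 19.4 RPKM. MLST8, TSC1 and TSC2 were lowest at 6.99 ± 1.73, 4.82 ± 0.410 and 4.35 ± 1.13 RPKM. The median deviations were 0.11, −0.15, −0.13 and 0.12, with conceptuses 1 and 4 above the other 2 by the median. By gene, the 2 highest libraries were conceptuses 1 and 4 for 7 of 14, against 36.1% of all features. Of the 14, 3 genes were highest in conceptus 3, against 15.4% of all features. Those 3 were MTOR at 12.2, 13.1, 15.5 and 13.4 RPKM, RHEB at 59.6, 63.8, 69 and 46.4 RPKM, and RPS6KB1, the kinase of RPS6, at 36.1, 59.3, 63.2 and 49.4 RPKM. LARP4 was highest in conceptus 2 at 62.2 RPKM, and MYC stood at 12.4, 6.84, 4.26 and 9.99 RPKM.

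Mitochondrial ribosomal protein genes, a list chosen after the data were seen, had median deviations of 0.28, −0.07, −0.25 and 0.02 over 66 genes. Conceptus 3 was lowest for 39 of them, 59.1%, close to the 55.1% of the cytosolic features and against 29.8% of all features. The 2 highest libraries were conceptuses 1 and 4 for 32 of 66, 48.5%, against 63.3% of the cytosolic features and 36.1% of all features. No feature of these lists was called by the variance test, which called 0 of 9602 features.

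**Figure D5:**
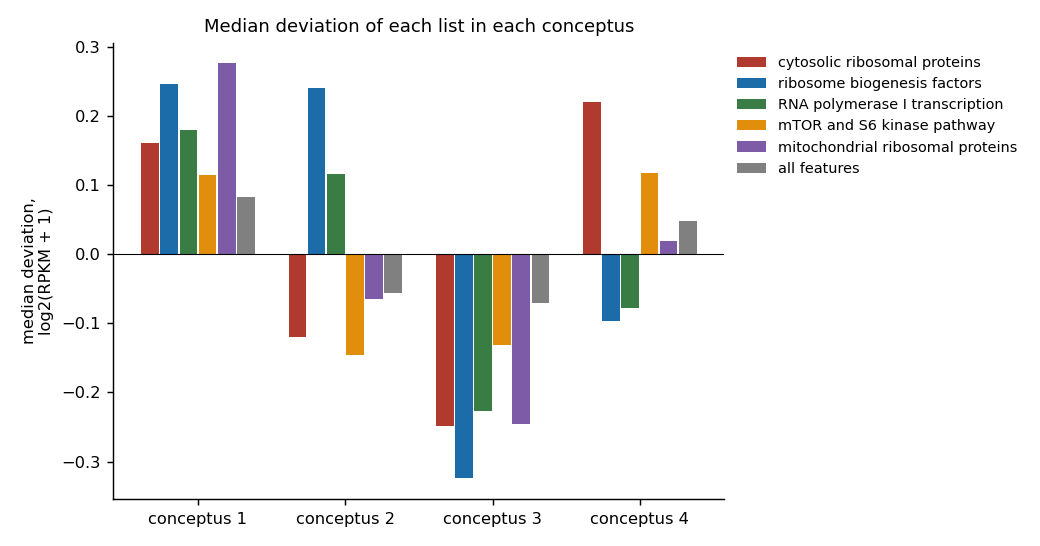
Median deviation in each conceptus of cytosolic ribosomal protein features and 4 related gene lists, with all features in grey, on the log2(RPKM + 1) scale. Every list lies below 0 in conceptus 3; in conceptus 4 the ribosomal proteins stand at 0.22 and the biogenesis factors at −0.10.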

How the data were processed

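Total RNA of 4 conceptuses was depleted of ribosomal RNA and read on an Ion Proton with strand-specific libraries, bases being called with Torrent Suite 4.0.2, per the labels' protocols. The deposited values are RPKM, computed by the authors per transcript length and library size and named as such in the second deposited table, in which 45 of the members recur with identical values. Reads were placed on Oar_v3.1 according to the submitters' processing notes. Which aligner, counter and annotation were used is not stated in the labels or the file headers.

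Members and lists were chosen with earlier results of these data known. Differences are on the log2(RPKM + 1) scale, a pseudocount of 1, for the 9602 features averaging 1 RPKM or more. The variance test used limma 3.58.1 in R 4.3.3, an upper-tail F test against its robust trended prior with Benjamini-Hochberg adjustment at 0.05, checked on simulated data. That prior was fitted to the same features. Where 1 conceptus is left out, the filter is applied to the other 3. Gene pairs were compared within conceptuses by exact permutation of signs, two-sided. Other steps ran in Python 3.11.15 with pandas 2.3.3, numpy 2.4.6 and scipy 1.17.1, and plots in matplotlib 3.10.9. Named were the 10 highest features of each subunit, the lowest, those listed at 0, those over 2-fold, copies, pairs and the 5 steadiest, with the 3 highest and 3 lowest genes of each other list; further genes of those lists (NOP56, NOB1, NHP2, UBTF, RPS6KB1, MTOR, RHEB, LARP4, MYC) were chosen after their values were seen. The labels say that the ewes were different animals, so the SD includes differences between animals and between libraries. Some features that meet this rule are not reported here by name; they remain in every count, share and median.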

Additional observations from a re-analysis of the deposited data

Results flagged for a closer look

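Dixon's ratio, which divides the distance of the outermost library from the next one by the full spread, was computed for 77 groups of 4 values; 2 passed its 95% limit, where chance gives about 1 in 20, or 3.85. In RPL23A_4 the outermost library was conceptus 4 at 9.03 RPKM (ratio 0.864), the other 3 lying between 4.62 and 5.22 RPKM. RPL23A_4 is 1 of 4 numbered copies. The large-subunit median minus the small-subunit median was −0.33 on the log2(RPKM + 1) scale in conceptus 3 (ratio 0.937) and between 0.22 and 0.26 in the other 3. Causes were not tested.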

How the results depend on the processing

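No paired comparison of conditions was possible because the 4 conceptuses form 1 group. Pairing was used only for gene pairs within each conceptus. The count of features called by the F test built on limma's fit, 0 of 9602, was 4 with each library summed to 1000000. It was 0 to 11 without 1 conceptus (11 without conceptus 1, 0 without conceptus 2, 4 without conceptus 3 and 7 without conceptus 4). The count of ribosomal protein features called was 0 under every alternative run. At an unadjusted p under 0.05, the same F test gave 6 to 9 ribosomal protein features over the alternative runs. These were 11.9% to 18.75% of those tested, against 4.16% to 5.75% of all features. Features over 2-fold numbered 27 with no filter on low values, that is with every feature above 0 in any library, and 6 at 200 RPKM or more, a limit chosen after the data were seen, because more or fewer features are then counted. With no filter, a feature at 0 in some libraries but not all counts as over 2-fold. The share of all features without the filter was not computed. At 200 RPKM or more it was 19.9%, against 18.2% of ribosomal protein features. The median level, 9.18 on the log2 scale as a mean over conceptuses, was 8.45 with no filter, 10.22 with sums of 1000000, 9.47 with copies summed and 10.00 at 200 RPKM or more. The large-subunit minus small-subunit median, 0.10 ± 0.287, was −0.72 with no filter, which adds low features mostly of the large subunit but not the 7 listed at 0 throughout, −0.03 at a mean of 5 RPKM or more, 0.37 with copies summed and −0.04 to 0.16 without 1 conceptus, so its sign is not settled. Features lowest in conceptus 3 numbered 17 at 200 RPKM or more, and those highest there 1 with sums of 1000000 and 1 with median ratio scaling. The 3 pair ratios kept their sign under every alternative run; for RPL3L and RPL3, both under 1 RPKM in every library, the ratio was not tested or read, its sign differing between conceptuses 1 and 2. Depth is unknown, so values near 0 cannot be given a counting interval.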
